A study of Mus musculus with 4 samples.

Results

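The cells described here are *Cd209a*+ conventional dendritic cells of type 2 (cDC2) from the brain and dura mater of mice, 653 cells of the 14586 that passed the quality filter and of 18969 barcodes in all. They were chosen by measured values. Cells entered when over 1000 but under 6000 genes were seen in them and mitochondrial RNA made up no more than 7%. A kept cell was a member when the MHC class II genes *H2-Ab1* and *Cd74* both reached 3 on the natural log scale of the deposited values, when at least 2 of *Cd209a*, *Flt3*, *Mgl2*, *Tnip3* and *Olfm1* were above 0, when *C1qa* was below 1.5, and when *Xcr1*, *Clec9a*, *Ccr7*, *Cd79a* and *Cd3e* were at 0. Values of these 13 genes are therefore a description of the choice and are given without any test.

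Conventional dendritic cells take up antigen, carry it on MHC class II and prime T cells in the lymph node. Type 1 cells (cDC1, marked by *Xcr1* and *Clec9a*) are known for cross-presentation to CD8+ T cells, whereas type 2 cells present mainly to CD4+ T cells and carry many C-type lectins, which are receptors for sugars on pathogens and dying cells. At the border of the brain they reside in the dura mater, the outer meningeal layer, and few are found in the healthy parenchyma.

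The study sorted CD45+ hematopoietic cells by FACS from adult C57BL/6J mice, which were male by the study’s methods, and sequenced them with the 10x Chromium 3′ v3 chemistry. Mice received photothrombotic injury (PTI), in which light and a photosensitive dye occlude surface vessels and damage dura mater and brain together, or a sham operation, and were examined on day 3. The 4 libraries are brain S3 (sham), brain D3 (PTI), dura S3 and dura D3, with 1 library per condition. The labels give neither the day nor the sham operation, which were taken from the study’s text. They call the sham libraries control and write the gate of both brain libraries as CD45-+, but *Ptprc*, the gene of CD45, had a UMI in 92.0% to 95.6% of the kept cells of every library and in 114 of 115, 274 of 275, 153 of 157 and 105 of 106 members. How many mice entered a library is not given in the sources used here, and the brain gate can hold cells of adhering leptomeninges and of blood.

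With 1 library per condition no test between conditions was possible. Levels are therefore given as CPM, UMIs summed over the members and scaled so that all genes of a library sum to 1000000, and differences as log2 ratios of those levels with an exact 95% Poisson interval in parentheses. These intervals cover counting error only, neither the spread between mice nor the concentration of UMIs in a few cells. A gene was compared between 2 libraries when its members held at least 100 UMIs together, and was counted as past 2-fold at a log2 ratio of 1 or more in either direction, the 13 genes of the rule left out. Because free RNA enters every droplet, the level or share in B cells of the same library is set beside that of the members, and a value at or below it is read as background. Where B cells transcribe a gene themselves, a level below theirs does not decide.

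The members were deeply sequenced. Their median was 17486 UMIs in brain S3, 15713 in brain D3, 17965 in dura S3 and 19407 in dura D3, and the median number of detected genes ran from 3282 to 3836. B cells were shallower, with library medians of 3613 to 5882 UMIs. Kept cells of different libraries shared 0 to 7 barcodes per pair, and no member had its barcode as a member in another library.

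The rule removed cells at each step. Of the kept cells, 905 in brain S3, 1068 in brain D3, 777 in dura S3 and 714 in dura D3 passed the MHC class II step, 346, 640, 397 and 405 of them had 2 of the 5 selection genes, and 189, 364, 258 and 159 also had low *C1qa*. Removing cells with one of the 5 excluded genes left 115, 275, 157 and 106 members. Near the limits, the lowest *H2-Ab1* among members lay between 3.05 and 3.39, and the highest among cells left out only for MHC class II lay between 2.67 and 2.96. The highest *C1qa* of a member was 1.30 to 1.48, and 48, 143, 46 and 43 members held a *C1qa* UMI. Exactly 2 of the 5 selection genes were found in 7, 69, 17 and 25 members, and 12, 45, 11 and 14 cells were left out for having only 1.

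The label was set beside genes outside the rule. *Itgax*, the gene of CD11c, stood at 101 CPM in brain S3, 118 CPM in brain D3, 99.0 CPM in dura S3 and 87.4 CPM in dura D3, against 1.40 to 10.0 CPM in B cells. *Sirpa*, a receptor that separates type 2 from type 1 cells, stood at 174, 186, 186 and 238 CPM, and *Clec10a*, a galactose-binding lectin of cDC2, at 392, 342, 557 and 632 CPM. *Cst3*, which encodes the protease inhibitor cystatin C and is abundant in dendritic cells, stood at 5963, 4296, 6369 and 5621 CPM. All 4 levels were above those of B cells in every library, a comparison that cannot tell cDC2 from other myeloid cells. *Clec10a* stood at 67.6, 96.9, 330 and 399 CPM in the *C1qa*+ MHC class II high cells described below, lower than in members of the same library.

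The summed level of the 16 genes of the cDC2 identity list ran from 2238 to 2638 CPM over the 4 libraries, and that of the 12 genes shared by conventional dendritic cells from 5984 to 8323 CPM. B cells held 915, 957, 1639 and 1327 CPM of the identity list and T cells 429, 882, 791 and 1146 CPM. Of the shared list B cells held 2507, 3679, 1260 and 1665 CPM and T cells 2641, 5298, 2352 and 2628 CPM. These sums lay below those of the members in every library, for the shared list by little in T cells of brain D3. *Esam*, an adhesion gene of one splenic cDC2 subset, was at 0 in 3 of the 4 libraries, and *Clec4a4*, the gene of the DCIR2 lectin, was at 0 in both dura libraries. Over all libraries *Fscn1*, which marks mature migratory dendritic cells, stood at 1.19 CPM in members against 1171 CPM in *Ccr7*+ dendritic cells.

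The same libraries were searched for 4 neighbouring classes by rules of the same kind. These were 87 cDC1 cells (*Xcr1*+ *Clec9a*+), 22 *Ccr7*+ *Fscn1*+ dendritic cells, 530 *C1qa*+ MHC class II high cells and 815 *Ly6c2*+ MHC class II low cells. Against them the members had their own leading genes, listed by the smallest ratio over the 4 classes with all libraries summed. The classes differ by construction, so these values are a description without a test.

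*Cd209d*, a lectin gene of the same cluster as *Cd209a*, stood at 68.5 CPM in members and at 0 to 8.33 CPM in the 4 classes. *Spint1*, which encodes an inhibitor of serine proteases at the cell membrane, stood at 64.2 CPM against 3.44 to 20.5 CPM. *Il1r2*, the decoy receptor for interleukin 1, stood at 154 CPM against 23.3 to 51.9 CPM. *Ifitm1*, an interferon-induced membrane protein gene, stood at 660 CPM against 57.8 to 215 CPM. Summed over libraries, all 4 genes were higher in members than in each of the 4 classes. For *Ifitm1* this did not hold in every library, as dura S3 members held 19.4 CPM against 23.4 CPM in cDC1 cells, 36.5 CPM in *C1qa*+ cells and 75.1 CPM in *Ccr7*+ cells. The next leading genes were *Kcne3*, *Gfra2*, *Trp53i11*, *Ly6d*, *Ctnnd2*, *Cd7*, *Skint3*, *Ank*, *Dcstamp*, *Gpr18* and *Clec10a*.

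Marker genes of the other classes were lower in members than in the class they mark, some by little. *Irf8* and *C1qb* are tied to genes that the rule excludes or bounds. *Irf8*, the transcription factor that cDC1 cells depend on, stood at 107 CPM in members and 1438 CPM in cDC1 cells. *C1qb*, a complement gene of resident macrophages, stood at 176 CPM in members and 4584 CPM in the *C1qa*+ cells, although the rule bounds its neighbour *C1qa*. *Ly6c2*, a marker of inflammatory monocytes, stood at 121 CPM in members and 1853 CPM in the *Ly6c2*+ cells, which were gated on it. *Fcgr1*, the high-affinity IgG receptor of monocyte-derived cells and macrophages, stood at 115 CPM in members, 15.5 CPM in cDC1 cells, 126 CPM in *Ly6c2*+ cells and 292 CPM in *C1qa*+ cells. *Ccr2*, the receptor through which monocytes and cDC2 enter tissue, stood at 644 CPM in members, 910 CPM in *Ly6c2*+ cells and 369 CPM in cDC1 cells. The members were thus close to the monocyte gate in *Fcgr1* and far from it in *Ly6c2*.

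**Figure D1:**
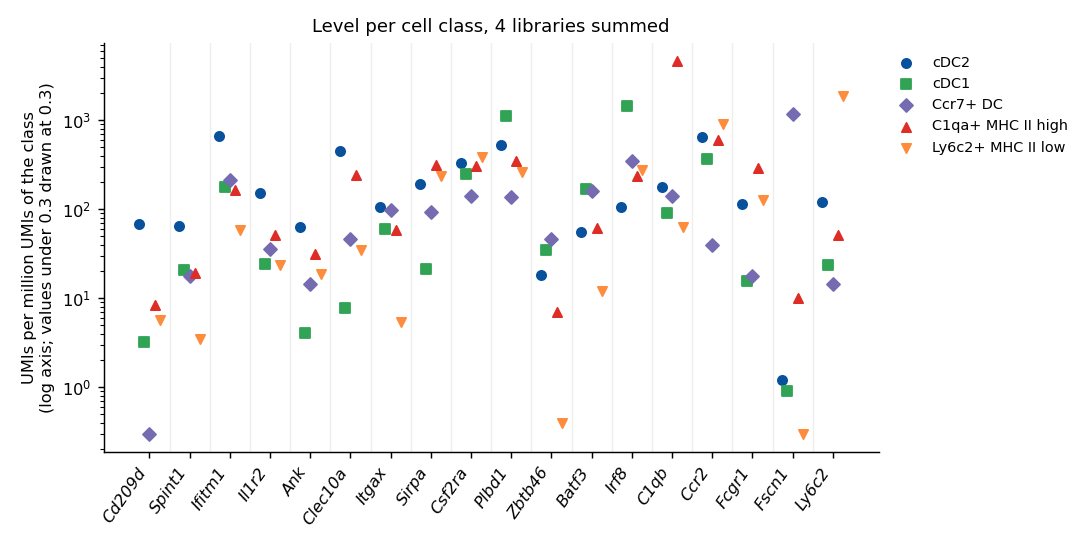
Level of 18 genes (CPM, log axis, all libraries summed) in the *Cd209a*+ members and the 4 gated classes; values under 0.3 CPM are drawn at 0.3. *Cd209d*, *Spint1*, *Il1r2* and *Clec10a* are highest in members, *Irf8* in cDC1 cells, *C1qb* in *C1qa*+ cells, *Fscn1* in *Ccr7*+ cells and *Ly6c2* in *Ly6c2*+ cells.

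Members took 3.07% of the kept cells of brain S3 (exact binomial interval 2.54% to 3.67%), 5.98% of brain D3 (5.31% to 6.70%), 4.40% of dura S3 (3.75% to 5.12%) and 3.97% of dura D3 (3.26% to 4.79%). These intervals cover counting error within single libraries only, so they give no test between conditions. The share was highest in brain D3 under the rule as given. It was not highest there with *C1qa* at 0 (2.87% against 3.11% in dura S3), with *Cd209a* above 0 (3.96% against 4.01%) or with cells thinned to 4000 UMIs before the rule (4.83% against 5.0%). The share is a share of sorted cells, so it also moves with every other cell type of the library. B cells, for example, took 14.3% of brain S3, 1.83% of brain D3, 21.2% of dura S3 and 6.67% of dura D3. Set against *Ly6c2*+ MHC class II low cells there were 115 members to 181 such cells in brain S3, 275 to 192 in brain D3, 157 to 261 in dura S3 and 106 to 181 in dura D3. Under the rule as given, members outnumbered these cells in brain D3 and in none of the other 3 libraries. The 182 brain D3 members with a *Cd209a* UMI did not outnumber them.

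**Figure D2:**
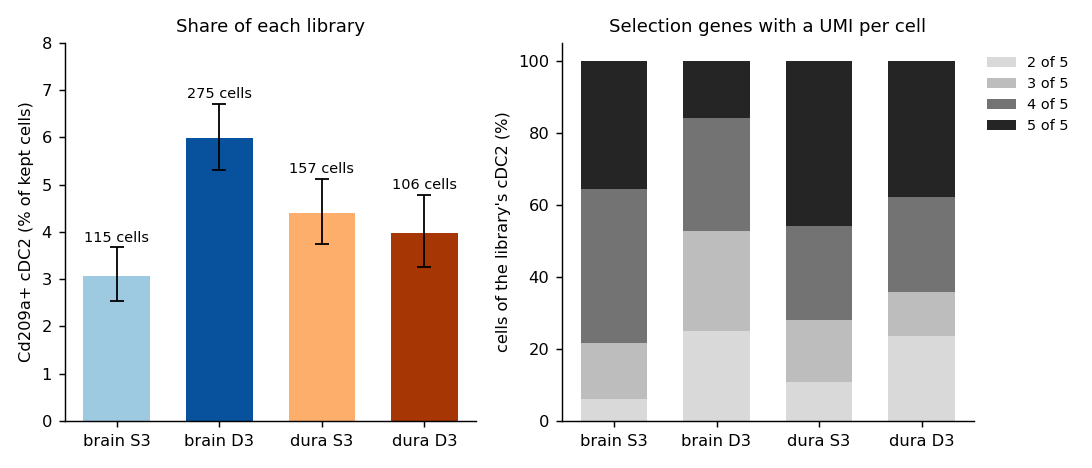
Left, members as a percent of the kept cells of each library, with exact 95% binomial intervals and the number of cells; right, percent of members with 2, 3, 4 or 5 of the 5 selection genes detected. Brain D3 has the highest share, 5.98%, and the lowest part of members with all 5 genes, 16.0%.

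The selection genes were not equally present in the 4 libraries. *Cd209a*, the mouse relative of human DC-SIGN, stood at 1334 CPM in brain S3, 703 CPM in brain D3, 1349 CPM in dura S3 and 1339 CPM in dura D3. It had a UMI in 93.0%, 66.2%, 91.1% and 76.4% of members, against 2.23% to 2.81% of B cells. *Mgl2*, which encodes the lectin CD301b, stood at 1017, 449, 1201 and 930.4 CPM. *Flt3*, the receptor for the growth factor of dendritic cells, stood at 81.4, 71.2, 103 and 116 CPM, *Tnip3*, an inhibitor of NF-κB signalling, at 628, 418, 600.3 and 472 CPM, and *Olfm1* at 234, 186, 305 and 298 CPM. All 5 were lowest in brain D3. All 5 were detected together in 35.7% of the members of brain S3, 16.0% of brain D3, 45.9% of dura S3 and 37.7% of dura D3. Exactly 2 were found in 6.09%, 25.1%, 10.8% and 23.6%. Both D3 libraries thus held more members at the edge of the rule than their S3 libraries.

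Members with fewer selection genes differed in genes that the rule did not read. *Ly6c2* had a UMI in 42.9% of the members with 2 selection genes and 17.1% of those with all 5 in brain S3, in 34.8% and 11.4% in brain D3, in 70.6% and 13.9% in dura S3, and in 52.0% and 12.5% in dura D3. *Itgax* ran the other way in the dura mater, from 29.4% to 77.8% in dura S3 and from 24.0% to 85.0% in dura D3.

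Splitting the members by *Cd209a* gave 107 with and 8 without a UMI in brain S3, 182 and 93 in brain D3, 143 and 14 in dura S3, and 81 and 25 in dura D3. In dura D3 the cells without *Cd209a* held 378 CPM of *Ly6c2* against 67.7 CPM in those with it, 694 against 10.4 CPM of the monocyte gene *Chil3*, 309 against 63.2 CPM of *Fcgr1* and 4885 against 449.9 CPM of the apolipoprotein gene *Apoe*. In brain D3 the same split gave 167 against 85.0 CPM of *Ly6c2*, 242 against 150.1 CPM of *Fcgr1* and 7639.7 against 2943 CPM of *Apoe*. *Clec10a* ran the other way in both, with 117 against 792 CPM in dura D3 and 99.4 against 486 CPM in brain D3. The 2 sets came from the same library and were split on a gene of the rule, so the values describe how the members varied. Of 4787 genes compared in brain D3, 80 were at least 2-fold higher with *Cd209a* and 103 without it. In dura D3 these were 114 and 94 of 2677.

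Between brain D3 and brain S3, 4.01% of 5855 compared genes were at least 2-fold higher in D3 (235 genes) and 1.43% at least 2-fold lower (84 genes). In the dura mater 0.893% of 5042 genes were at least 2-fold higher in D3 (45 genes) and 0.992% lower (50 genes). Of the 235 genes higher in brain D3, 113 had a counting interval above that of brain D3 B cells, as did 33 of the 45 higher in dura D3. The median log2 ratio of all compared genes was 0.02 in the brain and 0.03 in the dura mater. None of 13 compared genes of the cDC2 identity list and none of 11 compared shared cDC genes passed 2-fold in either tissue. Their medians were 0.02 and −0.10 in the brain and 0.18 and −0.01 in the dura mater.

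*Ifitm1*, whose product is a small membrane protein that restricts entry of viruses, was higher in D3 in both tissues. Among the genes with at least 200 UMIs named as higher in D3, it had the largest ratio in the dura mater and was among the 8 largest in the brain. It stood at 60.2 CPM in brain S3, 1453 CPM in brain D3, 19.4 CPM in dura S3 and 287 CPM in dura D3. B cells held 28.9, 52.2, 4.79 and 63.2 CPM. Both D3 libraries were far above both S3 libraries, and above their own B cells. The log2 ratio of D3 to S3 was 4.59 (4.34 to 4.86) in the brain and 3.89 (3.49 to 4.32) in the dura mater, 24.1-fold and 14.8-fold. A UMI was found in 18 of 115, 172 of 275, 39 of 157 and 55 of 106 members, or 15.7%, 62.5%, 24.8% and 51.9%, against 3.04% to 8.33% of B cells. After every cell was thinned to 2000 UMIs the shares were 4.35%, 42.5%, 0% and 22.6%. In brain S3 a single cell held 78 of the 128 UMIs, so the S3 level of most cells was lower still, whereas the 3 highest cells of brain D3 held 13.6% of its UMIs. *Ifitm1* did not follow the *Cd209a* split, with 1268 CPM in the members with *Cd209a* and 1764 CPM in those without it in brain D3, and 306 and 226 CPM in dura D3. In other classes of brain S3 and brain D3 it stood at 39.4 and 881 CPM in cDC1 cells, at 18.2 and 345 CPM in *C1qa*+ cells and at 9.42 and 150.0 CPM in *Ly6c2*+ cells, so it was higher in D3 in these classes of the brain as well. Among dura cells it stood at 23.4 and 20.1 CPM in cDC1 cells, at 36.5 and 106 CPM in *C1qa*+ cells and at 15.7 and 65.8 CPM in *Ly6c2*+ cells. Its gene lies on chr7:140967221-140969825 (GRCm38, forward strand).

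*Spint1* and *Il1r2*, leading genes of the members, were also higher in D3 in both tissues. *Spint1* stood at 25.4, 104, 18.6 and 73.5 CPM, in B cells at 0.478 to 12 CPM, and its log2 ratio was 2.03 (1.63 to 2.47) in the brain and 1.98 (1.51 to 2.46) in the dura mater. A UMI was found in 23.5%, 60.0%, 19.1% and 50% of members. *Il1r2* stood at 75.7, 263, 48.4 and 123 CPM with log2 ratios of 1.79 (1.56 to 2.04) and 1.35 (1.04 to 1.66). Both D3 levels of both genes were above both S3 levels. *Cd38*, which encodes an ectoenzyme that consumes NAD, went from 1 UMI in 1 cell of brain S3 to 226 UMIs in 108 of 275 cells of brain D3, a log2 ratio of 6.64 (4.15 to 11.96). Its levels were 0.47, 47.1, 2.51 and 15.9 CPM, all below the 68.2 to 122 CPM of B cells. B cells express this gene, so their level is no gauge of its free RNA. The part of free RNA in the D3 values of *Cd38* was not tested. The S3 members held the same gene at 0.47 and 2.51 CPM beside B cells at 122 and 99.5 CPM.

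**Figure D3:**
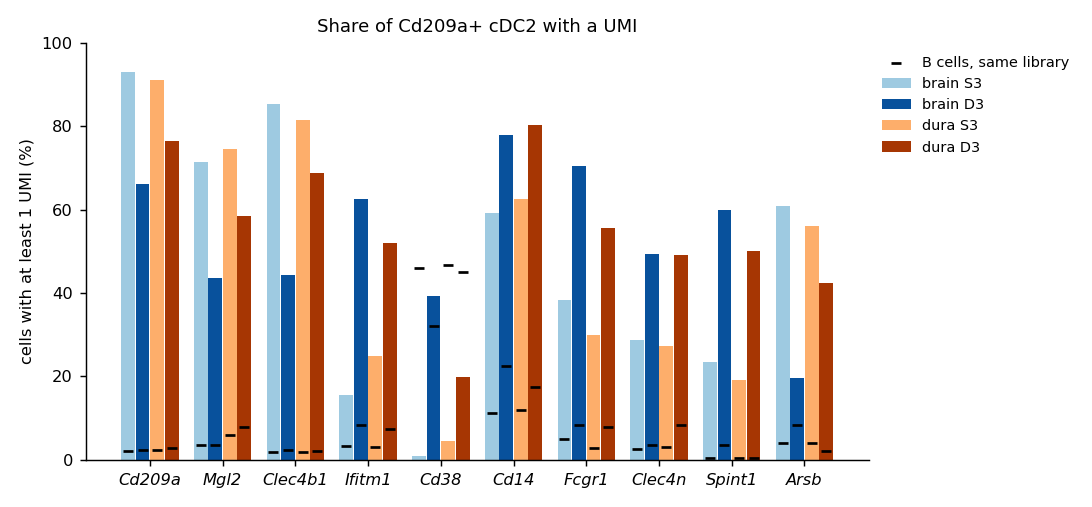
Percent of members with at least 1 UMI of 10 genes in each library. Dashes mark B cells of the same library. *Ifitm1*, *Spint1* and *Fcgr1* are detected in more members in both D3 libraries than in the S3 libraries, and *Cd209a* and *Clec4b1* in fewer.

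The C-type lectins split in 2 directions. In the brain 4 of 11 compared lectin genes were at least 2-fold higher in D3 and 2 at least 2-fold lower, with a median log2 ratio of 0.20. In the dura mater 2 of 9 were higher and none lower, with a median of 0.27. *Clec4n*, the gene of Dectin-2, which binds fungal mannans, stood at 27.8, 132, 40.9 and 111 CPM, with log2 ratios of 2.25 (1.86 to 2.66) in the brain and 1.44 (1.11 to 1.78) in the dura mater. *Clec4e*, the gene of Mincle, a sensor of mycobacterial glycolipid and of dead cells, stood at 32.5, 151, 30.8 and 79.9 CPM, with ratios of 2.22 (1.86 to 2.60) and 1.37 (0.99 to 1.77). Both activating lectins were higher in each D3 library than in either S3 library and, in D3, above B cells, which held 6.02 and 50.6 CPM of *Clec4n* and 72.2 and 13.3 CPM of *Clec4e*. T cells held 26.4 and 132 CPM of *Clec4n* and 51.1 and 65.8 CPM of *Clec4e* in D3, so *Clec4n* of dura D3 members lay below T cells.

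*Cd209d* and *Clec4b1* ran the other way in the brain. *Cd209d* stood at 58.3 CPM in brain S3 and 21.2 CPM in brain D3, a log2 ratio of −1.46 (−1.85 to −1.07), and at 129 and 108 CPM in the dura mater, a ratio of −0.27 (−0.51 to −0.02). *Clec4b1*, the gene of the lectin DCAR1, stood at 219.6, 101, 263 and 183 CPM, with ratios of −1.12 (−1.31 to −0.93) in the brain and −0.52 (−0.71 to −0.34) in the dura mater. *Clec12a*, an inhibitory lectin gene, stood at 175, 89.6, 180.4 and 154 CPM, with a brain ratio of −0.97 (−1.17 to −0.76) that did not reach 2-fold. All 3 were lowest in brain D3. The members without *Cd209a*, which were more frequent in D3, held little of 2 of these genes in brain D3, at 1.68 CPM of *Cd209d* and 17.3 CPM of *Clec4b1* against 32.9 and 151 CPM in the members with it. In those with *Cd209a*, brain D3 still lay below the 62.1 CPM of *Cd209d* and 225 CPM of *Clec4b1* of brain S3.

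**Figure D4:**
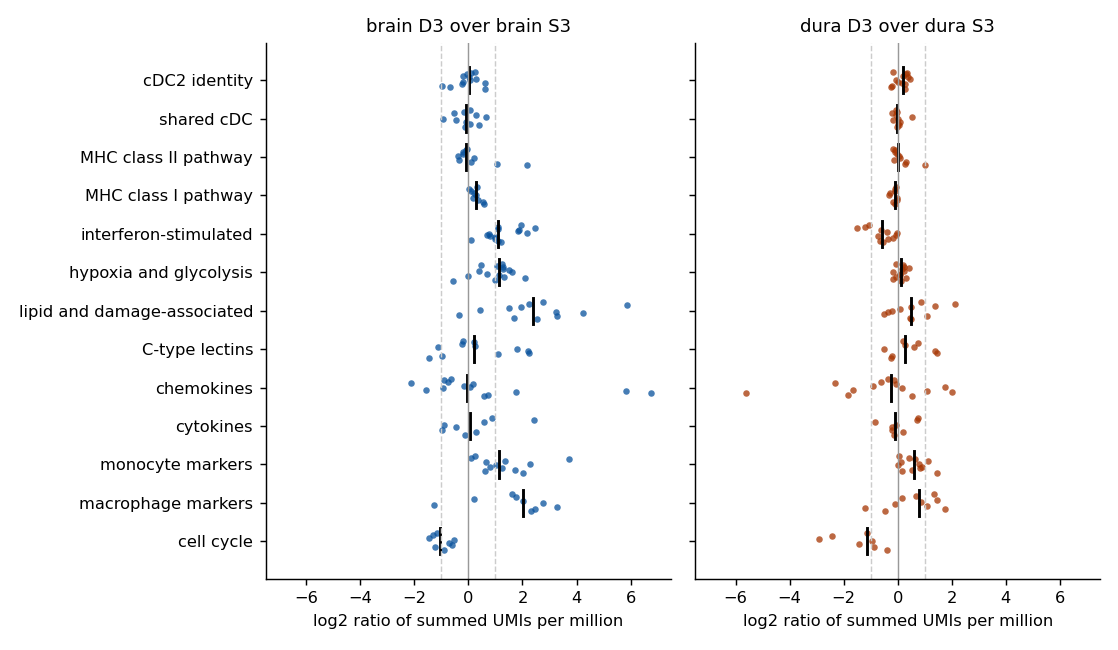
Log2 ratio of D3 over S3 for every compared gene of 13 gene lists (points) with the list median (bar), in brain members and dura members; dashed lines mark 2-fold. The lipid and damage-associated, hypoxia and glycolysis and interferon-stimulated lists have medians of 2.40, 1.13 and 1.09 in the brain and 0.48, 0.11 and −0.59 in the dura mater.

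The rule requires high *H2-Ab1* and *Cd74*, so it largely sets the class II level of the members, and similar levels between libraries are a description of the choice. Of 10 compared genes of the MHC class II pathway, 2 were past 2-fold higher in brain D3, with a list median of −0.07, and 1 in dura D3, with a list median of 0.00. *H2-Aa*, a class II chain gene that the rule does not read but that is expressed together with *H2-Ab1*, stood at 10800.0 CPM in brain S3, 10397 CPM in brain D3, 12262 CPM in dura S3 and 10946 CPM in dura D3. The genes past 2-fold were the proteases *Ctss*, which cleaves the invariant chain, at 1114, 2314, 1313 and 1582 CPM, and *Lgmn*, an endosomal protease, at 109, 490.5, 113 and 229 CPM. *Lgmn* in brain D3 lay below its 609.8 CPM in B cells of that library. None of 9 compared genes of the MHC class I pathway passed 2-fold in either tissue, with medians of 0.29 and −0.11. Of 8 co-stimulation and checkpoint genes compared in the brain, *Cd40* and *Cd274* were past 2-fold higher in D3, at 8.47 and 19 CPM and at 8.00 and 17.7 CPM in brain S3 and D3, and both lay under the level of B cells. Brain B cells held 905 and 1045 CPM of this list against 249 and 523 CPM in T cells, so their level need not be free RNA. *Cd86*, the ligand of CD28, stood at 156, 215, 110.1 and 167 CPM, with log2 ratios of 0.47 (0.29 to 0.65) and 0.60 (0.37 to 0.83).

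Of the innate sensors, 1 of 7 compared genes of the Toll-like receptor and inflammasome list was past 2-fold in brain D3 and none of 6 in dura D3, with medians of 0.64 and 0.50. *Cd14*, the co-receptor of TLR4 for lipopolysaccharide, stood at 305 CPM in brain S3, 726 CPM in brain D3, 349.6 CPM in dura S3 and 614 CPM in dura D3, with log2 ratios of 1.25 (1.13 to 1.38) and 0.81 (0.69 to 0.94). Both D3 libraries were above both S3 libraries. *Il1b*, the interleukin 1β gene, was the most abundant cytokine gene, at 2743, 5008, 1841 and 3072 CPM. Its ratios of 0.87 (0.83 to 0.91) and 0.74 (0.68 to 0.79) were under 2-fold in both tissues. B cells held 251, 636, 164 and 312 CPM. *Tnf* stood at 154, 78.1, 134 and 116 CPM and *Il6* at 12.2, 15, 39.4 and 21.8 CPM. Of 8 compared cytokine genes in the brain only *Il1a* was past 2-fold, at 4.23, 22.5, 8.61 and 16.9 CPM, and none of 8 in the dura mater.

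Of 14 compared chemokine genes, 3 were past 2-fold higher and 2 past 2-fold lower in brain D3, with a median of −0.06. In dura D3 3 of 14 were higher and 4 lower, with a median of −0.25. *Cxcl2*, a neutrophil attractant, stood at 316, 1066, 118 and 469 CPM, with log2 ratios of 1.76 (1.64 to 1.87) in the brain and 1.99 (1.81 to 2.18) in the dura mater. It was higher in D3 in both tissues, beside B cells at 124, 269, 78.5 and 329 CPM and T cells at 115, 538, 246 and 774 CPM. The dura levels of *Cxcl2* in members thus lay below those of T cells. *Ccr1*, a receptor for inflammatory CC chemokines, stood at 162, 278, 51.3 and 127 CPM, with ratios of 0.78 (0.61 to 0.95) and 1.30 (1.0 to 1.61).

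*Ccl17* and *Ccl22*, 2 ligands of CCR4 that attract helper and regulatory T cells, did not move together. *Ccl17* stood at 65.8 CPM in brain S3, 33.9 CPM in brain D3, 262 CPM in dura S3 and 82.4 CPM in dura D3, with log2 ratios of D3 to S3 of −0.96 (−1.29 to −0.62) and −1.67 (−1.92 to −1.42). Only 21, 24, 36 and 12 members held it, and the 3 highest cells held 59.3% to 69.9% of its UMIs in each library. *Ccl22* stood at 44.2, 14.8, 15.8 and 33.8 CPM, with ratios of −1.58 (−2.05 to −1.12) in the brain and 1.10 (0.53 to 1.68) in the dura mater. *Ccl5* stood at 152, 34.8, 68.9 and 13.9 CPM. Brain S3 members also held the most RNA of natural killer cells, at 43.7, 11, 0.717 and 2.98 CPM of *Nkg7* and 40.4, 3.33, 0.717 and 0.993 CPM of *Gzma*, and the part of such RNA in the *Ccl5* difference was not tested.

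The hypoxia and glycolysis list was higher in brain D3 and not in dura D3. In the brain 9 of 15 compared genes were at least 2-fold higher and none lower, with a median log2 ratio of 1.13. In the dura mater none of 13 passed 2-fold, with a median of 0.11. *Hilpda*, a lipid droplet gene induced by hypoxia, stood at 32.0, 138, 28.7 and 35.7 CPM, a log2 ratio of 2.11 (1.75 to 2.49) in the brain and 0.32 (−0.16 to 0.79) in the dura mater. The glycolytic enzyme genes *Tpi1* and *Aldoa* stood at 84.7, 262, 104 and 91.4 CPM and at 204, 579, 207 and 229 CPM, with brain ratios of 1.63 (1.40 to 1.86) and 1.51 (1.36 to 1.66). *Vegfa*, the angiogenic growth factor induced by hypoxia, stood at 41.4, 98.9, 17.6 and 16.4 CPM, with a brain ratio of 1.26 (0.93 to 1.6), and was too sparse to compare between the dura libraries. Brain D3 was the highest library for all 4 genes, and brain S3 was above both dura libraries for *Vegfa*.

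Of the 9 hypoxia and glycolysis genes past 2-fold, 8 lay above B cells in brain D3, the exception being *Bnip3*. The list also moved in other classes of the brain, with D3 over S3 medians of 1.47 in *C1qa*+ cells, 0.61 in *Ly6c2*+ cells, 1.14 in T cells and 0.76 in B cells. It had a median of 1.14 over 8 genes in *Ccr7*+ dendritic cells. In cDC1 cells of the brain it had a median of 0.07 over 10 genes, none at least 2-fold higher. Its summed level over members was 2689.9, 5198, 2668 and 2904 CPM, and the median over single members 2438, 3485, 2463 and 2593 CPM, so the typical member of brain D3 was also higher.

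The lipid and damage-associated list was higher in brain D3, but 8 of its 10 genes past 2-fold were not above B cells. In the brain 10 of 12 compared genes were at least 2-fold higher in D3 and none lower, with a median of 2.40. In the dura mater 3 of 11 were higher, with a median of 0.48. *Apoe* stood at 689, 4694, 819 and 1503 CPM in members and at 3116, 5609, 1106 and 3718 CPM in B cells. *Ctsd*, the cathepsin D gene, stood at 103, 1003, 87.9 and 187 CPM in members and at 324, 1661, 99.2 and 215 CPM in B cells. *Cd63* and *Spp1*, the genes of a tetraspanin and of osteopontin, stood at 117 and 280.1 CPM in brain D3 members and at 377 and 742 CPM in B cells. Of the 10 genes, the lipid droplet gene *Plin2* and the cathepsin B gene *Ctsb* lay above B cells in brain D3. *Plin2* stood at 119, 336, 105 and 146 CPM and *Ctsb* at 349, 1115, 331 and 454 CPM, with brain ratios of 1.5 (1.30 to 1.69) and 1.68 (1.56 to 1.79). In B cells of the brain the list median was 2.24. In brain D3 the highest 10% of the members held 65% of the list's UMIs. Over single cells the summed list had a median of 2203, 3370, 2240 and 2363 CPM in members. In B cells this median was 583, 2372, 437 and 581 CPM, so the typical member lay above the typical B cell in every library.

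Markers of other cells moved with D3. Of the monocyte list 7 of 12 compared genes were at least 2-fold higher in brain D3 and 2 of 12 in dura D3, with medians of 1.13 and 0.59. Its summed level was 5958 CPM in brain S3, 10117 CPM in brain D3, 8092 CPM in dura S3 and 9861 CPM in dura D3, with *Vcan* at 0 in both S3 libraries. Of the macrophage list 7 of 9 were higher in brain D3 and 1 lower, and 4 of 10 higher and 1 lower in dura D3. Its summed level was 1149, 5779, 1424 and 2326 CPM, below the 4336, 8006, 1757 and 6031 CPM of B cells, and *Lyve1* was at 0 in brain D3 and dura S3. Of 6 infiltrating macrophage genes, all 6 were past 2-fold in brain D3 and 2 of 4 in dura D3. Their summed level was 119, 894, 81.8 and 147 CPM in members and 145, 1500.5, 68.4 and 110.3 CPM in B cells, and *Arg1* and *Gpnmb* were at 0 in both S3 libraries. The part of monocyte and macrophage RNA in the D3 differences was not tested.

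*Fcgr1* and *Cd14* lay above B cells where most macrophage genes did not, but *Fcgr1* did not lie above T cells in D3. *Fcgr1* stood at 45.2 CPM in brain S3, 184 CPM in brain D3, 44.1 CPM in dura S3 and 122 CPM in dura D3, with log2 ratios of 2.03 (1.72 to 2.35) and 1.46 (1.15 to 1.79), against 26.3, 84.3, 20.9 and 47.8 CPM in B cells and 28.9, 189.5, 48.5 and 124 CPM in T cells. In brain D3 T cells held 26205 CPM of the macrophage list against 8006 CPM in B cells, so B and T cells do not give the same background level. The part of free RNA in the *Fcgr1* difference was not tested. A UMI was found in 38.3%, 70.5%, 29.9% and 55.7% of members, and in 2.91% to 8.33% of B cells. Both D3 libraries were above both S3 libraries. The monocyte gene *Ly6c2* differed less, at 96.9, 116, 136 and 141 CPM, with ratios of 0.25 (0.02 to 0.49) and 0.06 (−0.17 to 0.29). *Fn1* and *Tgfbi*, matrix genes of monocytes, stood at 56.9, 275, 94.0 and 164 CPM and at 308, 809, 292 and 519 CPM. Their brain ratios were 2.27 (2.0 to 2.55) and 1.40 (1.28 to 1.52), and their dura ratios 0.80 (0.56 to 1.04) and 0.83 (0.70 to 0.97). Of the angiogenic and matrix list 5 of 12 genes were past 2-fold in brain D3 and none of 9 in dura D3, with medians of 0.29 and 0.13. *Mmp14*, a membrane-bound matrix metalloprotease gene, stood at 3.76, 39.6, 4.30 and 12.4 CPM.

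Several genes were lower in brain D3. *Arsb*, a lysosomal sulfatase gene, stood at 60.2 CPM in brain S3, 15.4 CPM in brain D3, 70.3 CPM in dura S3 and 32.3 CPM in dura D3, with log2 ratios of −1.97 (−2.40 to −1.54) and −1.12 (−1.55 to −0.71). *Ear2*, a ribonuclease gene, stood at 189.5, 58.7, 287 and 131 CPM, with ratios of −1.69 (−1.92 to −1.47) and −1.14 (−1.34 to −0.93). *Arsb* and *Ear2* were lower in D3 in both tissues, with both D3 levels below both S3 levels. *Mrc1*, the mannose receptor gene, stood at 174, 72.5, 216 and 199.6 CPM, with ratios of −1.26 (−1.48 to −1.04) and −0.12 (−0.30 to 0.07), and was lower in brain D3 alone. *Fkbp5*, a glucocorticoid-induced chaperone gene, stood at 63.5, 19.8, 62.8 and 30.8 CPM, and *Pdcd4*, a repressor of translation, at 115, 40.2, 108 and 73.5 CPM. In every library *Pdcd4* lay below B cells, at 252, 140, 207 and 257 CPM, and T cells, at 361, 152, 339 and 258 CPM. *Mrc1* of dura D3 lay below the 206 CPM of B cells. *Naaa*, an amide hydrolase gene of conventional dendritic cells, stood at 212, 110.4, 258 and 263 CPM, a brain ratio of −0.94 (−1.12 to −0.75) just under 2-fold.

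The dissociation list, which moves with the handling of tissue, was lower in D3, with medians of −0.63 in the brain (1 of 13 genes past 2-fold higher, 3 lower) and −0.25 in the dura mater (2 lower). *Hspa1b*, a heat shock gene, stood at 556, 168, 268 and 106 CPM and *Hspa1a* at 1181, 562, 693 and 312 CPM, beside 2481, 1926, 349 and 53.4 CPM of *Hspa1a* in B cells. The part of handling in the differences between libraries was not tested.

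Proliferation genes had lower levels in both D3 libraries. Of the cell cycle list 4 of 8 compared genes were at least 2-fold lower in brain D3 and 4 of 7 in dura D3, none higher in either, with medians of −1.04 and −1.15. The list summed to 854, 486, 867 and 362 CPM in members and to 694, 742, 4397 and 2693 CPM in B cells. The dura sums lay below those of B cells and below the 1062 and 662 CPM of dura T cells. Dura B cells held far more of the list than dura T cells, so their level need not be free RNA. Dura B cells had a list median of −0.71. All 4 lower brain genes lay above B cells in brain S3, and none of the 4 lower dura genes did in dura S3. *Mki67*, the gene of the Ki-67 antigen, stood at 79.5, 35.6, 76.0 and 34.3 CPM, with log2 ratios of −1.16 (−1.47 to −0.84) and −1.15 (−1.56 to −0.75). *Top2a*, the topoisomerase of dividing cells, stood at 79.0, 31.7, 81.0 and 14.9 CPM, with ratios of −1.32 (−1.65 to −0.99) and −2.44 (−3.04 to −1.89). A UMI of both was found in 15 of 115 members of brain S3 (13%, exact interval 7.49% to 20.6%), 13 of 275 of brain D3 (4.73%, 2.54% to 7.95%), 18 of 157 of dura S3 (11.5%, 6.94% to 17.5%) and 9 of 106 of dura D3 (8.49%, 3.96% to 15.5%). The dura intervals overlapped widely. These few cells held 70.1%, 47.6%, 70.9% and 33.0% of the list's UMIs. Among *Ly6c2*+ cells the same share was 17.1%, 19.3%, 22.6% and 23.2%. The brain direction turned with a stricter *C1qa* limit, as *Mki67* then stood at a log2 ratio of 0.70 and *Top2a* at 0.06. The dura ratio of *Mki67* was 0.05 with no filter on cells.

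The interferon-stimulated list ran in opposite directions in the 2 tissues. In the brain 9 of 15 compared genes were at least 2-fold higher in D3 and none lower, with a median of 1.09. In the dura mater none of 12 was higher and 3 were at least 2-fold lower, with a median of −0.59. The sham libraries differed as well. Of 12 compared genes 7 were at least 2-fold higher in dura S3 than in brain S3, with a median of 1.08 beside 0.07 for all genes and a background of 1.53% of 5022 genes, and all 7 lay above dura S3 B cells. Between the injured libraries 7 of 15 were at least 2-fold lower in dura D3 than in brain D3, with a median of −0.72 beside 0.07 for all genes and a background of 2.18% of 5859 genes. The 4 comparisons share their libraries, so they are not independent.

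*Isg15*, a ubiquitin-like modifier, stood at 71.0 CPM in brain S3, 270.3 CPM in brain D3, 232 CPM in dura S3 and 112 CPM in dura D3. B cells held 31, 70.2, 48.0 and 50.6 CPM of it, and T cells 67.2, 182, 139 and 145 CPM. Brain S3 members thus lay close to T cells and dura D3 members below them. In members the log2 ratio of D3 to S3 was 1.93 (1.68 to 2.18) in the brain and −1.05 (−1.28 to −0.83) in the dura mater. *Ifit3*, an RNA-binding antiviral gene, stood at 15.1, 54.8, 52.0 and 18.4 CPM, with ratios of 1.86 (1.33 to 2.44) and −1.5 (−2.06 to −0.97). Brain D3 and dura S3 were the high libraries for both genes, and brain S3 and dura D3 the low ones. *Ifit1* stood at 5.17, 28.5, 21.9 and 7.45 CPM, *Rsad2*, the gene of viperin, at 9.88, 44.2, 28.0 and 10.4 CPM, and *Isg20*, an exonuclease gene, at 16.5, 35.4, 35.5 and 15.4 CPM. *Irf7*, the master regulator of the interferon α response, stood at 42.8, 153, 110.5 and 71.5 CPM. In brain D3, *Isg15*, *Ifit1*, *Ifit3* and *Rtp4* lay above B cells, while *Rsad2* at 30.1 CPM and *Irf7* at 116 CPM in B cells overlapped the members.

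**Figure D5:**
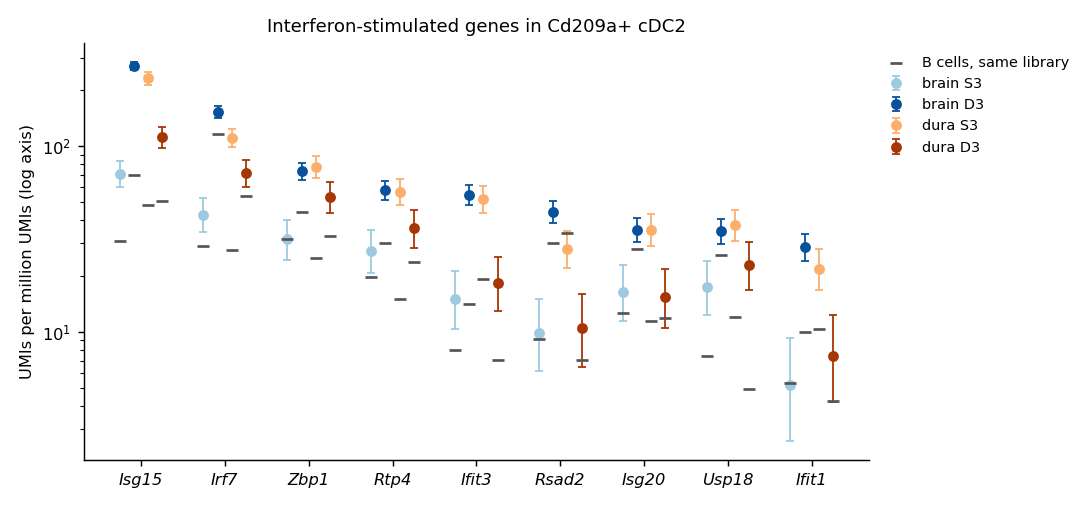
Level (CPM) of 9 interferon-stimulated genes in members of the 4 libraries, with exact 95% Poisson intervals; dashes mark B cells of the same library. *Isg15* stands at 270.3 CPM in brain D3 and 232 CPM in dura S3, above 71.0 CPM in brain S3 and 112 CPM in dura D3.

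The interferon-stimulated RNA was not spread evenly. The summed level of the 17 genes over single members had a median of 841 CPM in brain S3, 1142 CPM in brain D3, 1393 CPM in dura S3 and 1150.0 CPM in dura D3, and the highest 10% of the members held 37.9%, 46.2%, 42.5% and 32.8% of the UMIs. In brain D3 *Isg15* was lower in members with *Cd209a*, at 199 CPM, than in those without it, at 391 CPM. Other classes of the same libraries gave D3 over S3 medians of 0.43 in *C1qa*+ cells, −0.11 in *Ly6c2*+ cells, 1.0 in T cells and 0.87 in B cells of the brain. In the dura mater these were −0.01, −0.49, 0.15 and 0.35. B and T cells of the brain thus moved in the same direction as the members. In cDC1 cells the medians were −0.04 over 8 genes in the brain and −0.27 over 10 genes in the dura mater. *Ccr7*+ dendritic cells of the brain had a median of 1.68 over 4 genes.

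Promoters of the list were searched for the core of the interferon-stimulated response element, here TTTC, any 2 bases and TTTC again, read on either strand with overlapping matches counted. In RefSeq windows of the 250 bases before the transcription start (GRCm38.p6), 11 of the 17 list genes had an entry and 6 of these held a match. A match was found in 3.46% of 27025 genes with an entry and in 3.94% of the 4690 of them compared between the brain libraries. *Isg20*, with ratios past 2-fold in opposite directions in the tissues, held no match in its 3 windows. Shown with their matches in capitals are the windows of *Isg15* and *Ifit3*, which had such ratios too, and of *Ifit1*, which was past 2-fold in the brain and had too few UMIs to compare in the dura mater. The window of *Ifitm1*, which held no match and was higher in D3 in both tissues, follows. *Isg15* has 3 overlapping matches, at chr4:156200819-156201068 on the reverse strand. *Ifit1* (chr19:34640639-34640888) and *Ifit3* (chr19:34583279-34583528), both on the forward strand, have 2 each, and *Ifitm1* lies at chr7:140967826-140968075 on the forward strand. The *Ifitm1* window lies inside the annotated gene (chr7:140967221-140969825), so the bases before that annotated start were not searched. A match is a description of the letters in the window and not of a bound site.
Isg15: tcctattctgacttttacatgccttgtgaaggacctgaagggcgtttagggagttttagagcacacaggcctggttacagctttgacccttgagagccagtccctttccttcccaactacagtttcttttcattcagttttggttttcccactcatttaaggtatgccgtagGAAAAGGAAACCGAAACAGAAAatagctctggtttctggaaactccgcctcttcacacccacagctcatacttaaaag
Ifit1: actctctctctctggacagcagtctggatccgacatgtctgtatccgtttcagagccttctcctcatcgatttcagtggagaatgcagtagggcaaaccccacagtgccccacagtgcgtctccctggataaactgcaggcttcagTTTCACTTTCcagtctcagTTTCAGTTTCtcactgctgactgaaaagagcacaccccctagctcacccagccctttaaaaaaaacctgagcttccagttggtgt
Ifit3: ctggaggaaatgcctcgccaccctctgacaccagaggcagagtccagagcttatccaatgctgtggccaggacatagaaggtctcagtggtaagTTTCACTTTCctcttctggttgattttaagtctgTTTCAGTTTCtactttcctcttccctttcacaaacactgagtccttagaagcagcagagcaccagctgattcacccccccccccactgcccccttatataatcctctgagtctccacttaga
Ifitm1: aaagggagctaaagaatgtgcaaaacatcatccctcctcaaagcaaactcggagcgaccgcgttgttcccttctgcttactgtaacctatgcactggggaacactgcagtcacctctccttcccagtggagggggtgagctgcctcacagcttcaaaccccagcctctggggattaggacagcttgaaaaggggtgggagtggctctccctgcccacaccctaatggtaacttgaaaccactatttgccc

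Dura S3 members differed from brain S3 members in further genes. Beside a background of 1.53% higher and 0.757% lower, 2 of 13 compared chemokine genes were at least 2-fold higher in dura S3 and 4 lower. *Ccl17* had a log2 ratio of 1.99 (1.73 to 2.26) of dura S3 to brain S3. *Ccl3*, an inflammatory chemokine gene, stood at 518, 276, 190.4 and 175 CPM in the 4 libraries, a ratio of −1.44 (−1.6 to −1.29), and *Cxcl2* had a ratio of −1.42 (−1.61 to −1.23). *Id3*, an inhibitor of helix-loop-helix transcription factors, stood at 354.2, 285, 86.4 and 127 CPM, a ratio of −2.03 (−2.25 to −1.82). *Ccrl2*, an atypical chemokine receptor gene, stood at 422, 385, 149 and 229 CPM, a ratio of −1.5 (−1.67 to −1.33). *Ccr1* had a ratio of −1.66 (−1.95 to −1.38). *Id3*, *Ccrl2* and *Ccr1* were higher in both brain libraries than in both dura libraries. None of 12 compared cDC2 identity genes passed 2-fold, with a median of 0.07. Of 5 compared genes of plasmacytoid dendritic cells 3 were higher in dura S3, led by *Siglech*, at 14.1, 12.5, 52.4 and 25.3 CPM, with a UMI in 11 of 157 dura S3 members. With MHC class II at least 3.5, *Siglech* and *Ly6d* turned to log2 ratios of −0.48 and −2.0.

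Dura D3 members were compared with brain D3 members beside a background of 1.3% of 5859 genes higher and 2.18% lower. The lower genes in dura D3 included 7 of 15 of the hypoxia and glycolysis list, with a median of −0.87, and 10 of 13 of the lipid and damage-associated list, with a median of −1.63. *Vegfa* had a log2 ratio of −2.59 (−3.15 to −2.08). The higher genes included 2 of 11 shared cDC genes, *Naaa* and *Bcl11a*, with ratios of 1.25 (1.07 to 1.43) and 1.07 (0.75 to 1.38). *Bcl11a*, a transcription factor of dendritic cell and B cell development, stood at 42.8, 38.1, 81.8 and 79.9 CPM, below B cells in every library. *Cd209d* had a ratio of 2.34 (2.0 to 2.70), *Egr1*, an immediate early gene at 258, 125, 624 and 524 CPM, a ratio of 2.07 (1.92 to 2.21), and *Lifr*, a cytokine receptor gene at 47.5, 22.9, 79.3 and 74.5 CPM, a ratio of 1.70 (1.34 to 2.07). All 3 were higher in both dura libraries than in both brain libraries. *Egr1* belongs to the dissociation list.

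Some of the largest ratios rested on few cells. *Cxcl9*, a target of interferon γ, had 241 UMIs in 8 cells of brain D3, 227 of them in 1 cell, and 201 UMIs in 15 cells of dura S3, 146 of them in 1 cell. *Cxcl1* had 388 UMIs in 22 cells of brain D3 and none in brain S3, at least 57.3-fold higher when brain S3 is set to a floor of 3 UMIs over the library. *Arg1*, the arginase gene of infiltrating macrophages, had 663 UMIs in 47 cells of brain D3 and none in brain S3, at least 97.9-fold higher, and 3 cells held 63.5% of them. B cells of brain D3 held 50.1 CPM of *Arg1* and members 138 CPM. *Retnla* had 238 UMIs in brain S3, 236 of them in 1 cell, and none in brain D3.

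The neutrophil list gave 5 of 9 compared genes past 2-fold higher in brain D3 and 4 of 7 past 2-fold lower in dura D3, with summed levels of 3991, 8197, 4729 and 2238 CPM. B cells held 5565, 7478, 9460.1 and 3507 CPM, so the dura values were at background, and none of the 4 lower genes was above B cells in dura S3. Its median over single members ran from 177 to 433 CPM, far under these sums. *Camp*, a granule gene, had 2811 UMIs in 71 cells of brain D3, 80.9% of them in 3 cells, and 1174 UMIs in dura S3, 923 of them in 1 cell. Mast cell genes appeared in the dura mater, where *Mcpt4* had 294 UMIs in dura S3, 238 of them in 1 cell.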

How the data were processed

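The authors deposited, per library, a table of natural log values, ln(1 + 10000 × UMIs of the gene / UMIs of the cell), one column per barcode. The submitters' processing notes name Cell Ranger 3.1.0 and Seurat 3.1.0, and the genome mm10. Their methods remove doublets with Scrublet and cells of high mitochondrial share; whether this came before deposit is not given in the sources used here. UMIs were recovered as whole multiples of the smallest value of each cell, within 1e-06.

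Python 3.11.15 with numpy 2.4.6, scipy 1.17.1, pandas 2.3.3, scanpy 1.11.5 and matplotlib 3.10.9 was used. UMIs were summed per class and library. Ratio intervals are exact Poisson and share intervals Clopper-Pearson, at 95%. No p-value was computed. The calculation was tested on simulated data. Scrublet's automatic threshold called 3, 2, 2 and 0 barcodes and was not used; removing the top scores, at 0.8% per 1000 barcodes, took 2, 6, 6 and 0 members and was an alternative.

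Members and gene lists were chosen with earlier results of these data known. The text names the genes of the rule, up to 8 genes per direction and comparison with the largest ratio among those with at least 200 UMIs, up to 4 per list with at least 100 UMIs, list markers at 0 and the 15 leading genes over the other classes. Other genes, and those of the *Cd209a* split, were chosen after their values were seen.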

Additional observations from a re-analysis of the deposited data

Results flagged for a closer look

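For 6 genes and 2 lists the members moved in opposite directions after PTI in the brain and the dura mater. Each condition was 1 library, so the difference between tissues was not tested. Values are log2 ratios of D3 to S3, first in the brain, then in the dura mater, then brain minus dura. The interferon-stimulated list had medians of 1.09 and −0.59, a difference of 1.68. Within it *Isg15* had 1.93 and −1.05, a difference of 2.98, *Ifit3* 1.86 and −1.5, a difference of 3.36, and *Isg20* 1.10 and −1.21, a difference of 2.31.

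The neutrophil list had medians of 1.02 and −1.03, a difference of 2.05. Its summed level in the dura mater, 4729 and 2238 CPM, lay below the 9460.1 and 3507 CPM of B cells, so the dura side was at background. Within it *Camp* had 2.01 and −2.22, a difference of 4.23, and *Ltf* 2.54 and −1.47, a difference of 4.01. *Cxcl9* had 6.74 and −5.60, a difference of 12.33. The UMIs of *Camp*, *Ltf* and *Cxcl9* lay mostly in 1 to 3 cells of the higher library.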

How the results depend on the processing

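No paired analysis was possible because each condition was 1 library, and for the same reason no library could be left out. The share of members in brain S3, brain D3, dura S3 and dura D3 was 1.79%, 2.87%, 3.11% and 2.36% with *C1qa* at 0, 2.53%, 4.54%, 3.31% and 2.89% with *Ly6c2* at 0, and 2.51%, 4.71%, 3.42% and 3.24% with no filter on cells. It was 3.75% and 4.83% in brain S3 and D3 after thinning to 4000 UMIs before the rule, 4.48% and 3.04% in brain D3 and dura D3 with 3 of the 5 genes, and 3.96% and 3.04% with *Cd209a* above 0. Dura S3 was above brain D3 with *C1qa* at 0, with *Cd209a* above 0 (4.01%) and after thinning to 4000 UMIs (5.0%).

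Counts of genes past 2-fold moved by more than 1.5 times as follows. In brain D3 over S3 the 235 higher genes became 152 with 3 of 5 genes, 120 with *C1qa* at 0, 129 thinned to 4000 UMIs, 122 with *Cd209a* above 0, 52 with cells thinned to 2000 UMIs, 770 with a minimum of 1 UMI and 113 above B cells. The 84 lower became 31 with *C1qa* at 0, 45 with *Cd209a*, 9 at 2000 UMIs, 187 with a minimum of 50 UMIs, 2739 with 1 UMI and 54 above B cells. In dura D3 over S3 the 45 higher became 25 with *Cd209a*, 1 at 2000 UMIs, 89 with 50 UMIs and 1831 with 1 UMI. The 50 lower became 27 with *Ly6c2* at 0, 81 at 4000 UMIs, 5 at 2000 UMIs, 130 with 50 UMIs, 1441 with 1 UMI and 25 above B cells. In dura S3 over brain S3 the 77 higher became 8 at 2000 UMIs, 151 with 50 UMIs and 1447 with 1 UMI, and the 38 lower 23 with *C1qa* at 0, 6, 80 and 1518. In dura D3 over brain D3 the 76 higher became 50 with *Cd209a*, 12 at 2000 UMIs, 152 with 50 UMIs, 2631 with 1 UMI and 30 above B cells, and the 128 lower 65 with *C1qa* at 0, 32, 215, 674 and 59.

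Of 181 ratios of single genes, 19 changed direction under at least 1 of 14 alternatives. In brain D3 over S3 these were *Mki67* (0.70), *Top2a* (0.06) and *Gzma* (2.79) with *C1qa* at 0, *Rsad2* (−0.24) at 4000 UMIs, and *Cd274* (−0.84), *Kcne3* (0.33) and *Rtp4* (−0.12) at 2000 UMIs. In dura D3 over S3 they were *Siglech* (1.51 with *Ly6c2* at 0, 1.32 at 4000 UMIs), *C1qb* (−0.08 at 4000 UMIs) and *Mki67* (0.05 with no filter on cells). In dura S3 over brain S3 they were *Camp* (−0.65) and *Ltf* (−0.41) with the top Scrublet scores removed, and *Ly6d* (−2.0) and *Siglech* (−0.48) with MHC class II at least 3.5. In dura D3 over brain D3 they were *Camp* (1.12) and *Siglech* (−0.23) with *Ly6c2* at 0, *Ccl5* (0.85) with *C1qa* at 0, *Top2a* (1.06) with no filter on cells, *Ly6d* (−4.58) and *Siglech* (−1.10) with 3 of 5 genes, and *Siglech* (−0.71) with MHC class II at least 3.5. The causes were not tested.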
